A study of Mus musculus with 38 samples.

Results

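Lung gene expression in male MutaMouse given the highest dose of dibenz(a,h)anthracene (DBahA) was compared with that in vehicle controls, on 10 of the 38 arrays of the series. The arrays were chosen by their labels: lung at D3, 25 mg/kg-bw/day DBahA, 5 mice, against lung at D0, olive oil alone, 5 mice. MutaMouse is a transgenic strain that carries a bacterial lacZ reporter for mutation assays, and all mice of both groups carried it. The animals were about 10 weeks old, were dosed by oral gavage for 28 consecutive days, and were sampled 72 h after the last dose. RNA came from a slice of the right lung lobe, so every value is an average over the epithelium, vessels, blood and immune cells of that slice. Lung arrays at D1 (6.25 mg/kg-bw/day, 5 mice) and D2 (12.5 mg/kg-bw/day, 4 mice) entered the same fit to estimate the spread, and their values are given beside those at D3. Each array held the lung RNA in Cy5 and a reference RNA pooled from mouse cell lines in Cy3, and a level below is log2(Cy5/Cy3) after loess normalization. A probe was called when limma gave it an adjusted p, over all 55681 probes, of no more than 0.05 with a fold change of 1.5 or greater.

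DBahA is a polycyclic aromatic hydrocarbon that cytochromes P450 and epoxide hydrolase turn into reactive diol epoxides, which bind to DNA. Bulky adducts stall replication and transcription and activate p53, a transcription factor that switches on genes for cell cycle arrest, apoptosis and repair through a DNA element near their starts. The lung is largely capillary endothelium, thin alveolar type 1 and surfactant-making type 2 epithelium, fibroblasts and resident macrophages, and most of these cells divide rarely.

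The lung answered with more raised than lowered transcripts. At D3, 309 probes were called higher and 47 lower than at D0, which is 0.639% of all probes, 0.555% in the higher and 0.0844% in the lower direction. With 1 probe per gene, the brightest, 1.17% of 20018 genes were called, 1.02% higher and 0.15% lower, and the groups did not overlap in 4.79%. The called probes included 68 higher and 14 lower ones without a gene symbol. Of the 247 called genes with a symbol, 73 were members of the 68 gene lists used below. Within the lists, raised genes included targets of p53, genes of mitosis and DNA replication, carboxylesterases, clock genes and genes of the vessel wall. The lowered genes included clock, capillary and heat shock genes. With median centring in place of loess, 15 probes were called higher and 1 lower. The count of lowered probes was 30 without D3 mouse 16, 27 without D3 mouse 19 and 84 with slide as a block.

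**Figure D1:**
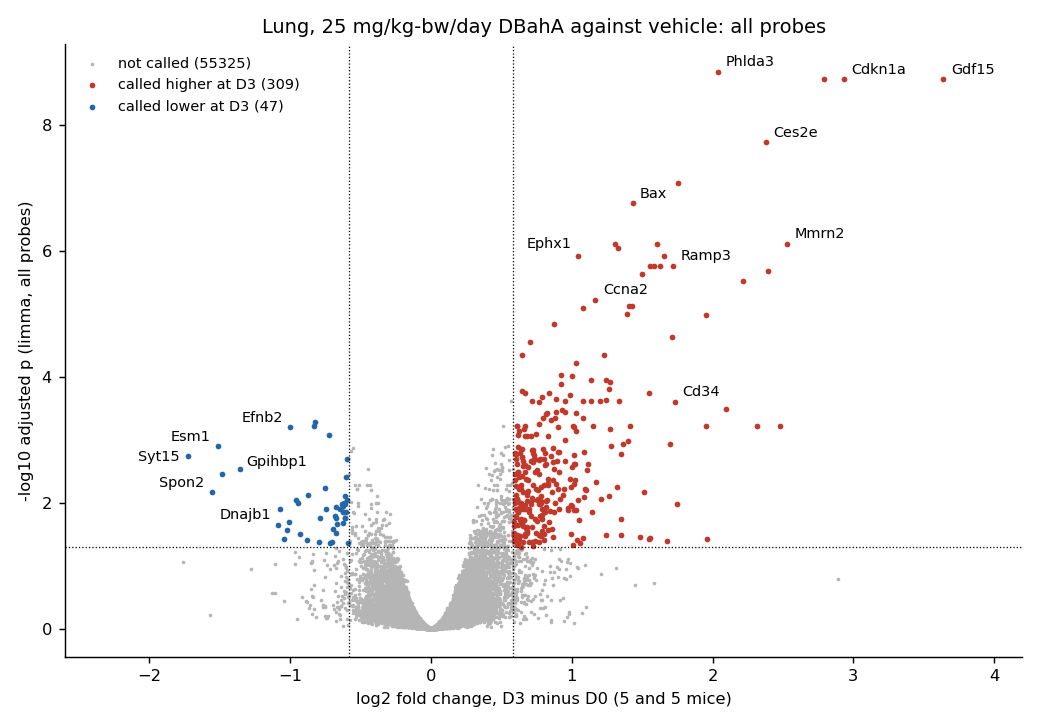
Each point is 1 of 55681 probes, with the log2 fold change of D3 minus D0 on the x axis and −log10 of the limma adjusted p on the y axis; dotted lines mark the thresholds, red points were called higher (309) and blue points lower (47). Gdf15, Cdkn1a and Phlda3 lie at the upper right, and the lowered genes reach -1.72 for Syt15.

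Several facts of the arrays differed between the groups or between single mice. The share of probes well above background in Cy5 ran from 41.5% to 61.1% at D0 and from 43.5% to 63.8% at D3, and on each of the 4 slides that held both groups it was higher on the D3 array, by 2.1 to 6.5 percentage points. The mean of 11 heart muscle markers, as a log2 difference from the average control, was 0.93 to 1.69 in D3 mice 17, 18 and 19, against -0.66 to 0.58 in the D0 mice and -0.76 and -0.74 in D3 mice 20 and 16. It was also high in D2 mouse 11 (1.90) and D1 mouse 9 (0.99). The mean of 9 mesothelial markers was 1.42 in D0 mouse 1 and between -0.69 and 0.13 in the other D0 mice. The part of these differences in the results was not tested. Without D3 mice 17, 18 and 19, 302 probes were called, 272 higher and 30 lower. The differences within slides gave the direction of the pooled value in all but 4 of 408 comparisons over 102 called genes named here. These genes were called on the pooled value of the same arrays. In 310 of the 356 called probes the groups did not overlap, and there the sign could not turn within a slide. The count therefore gives no separate support to the calls.

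**Figure D2:**
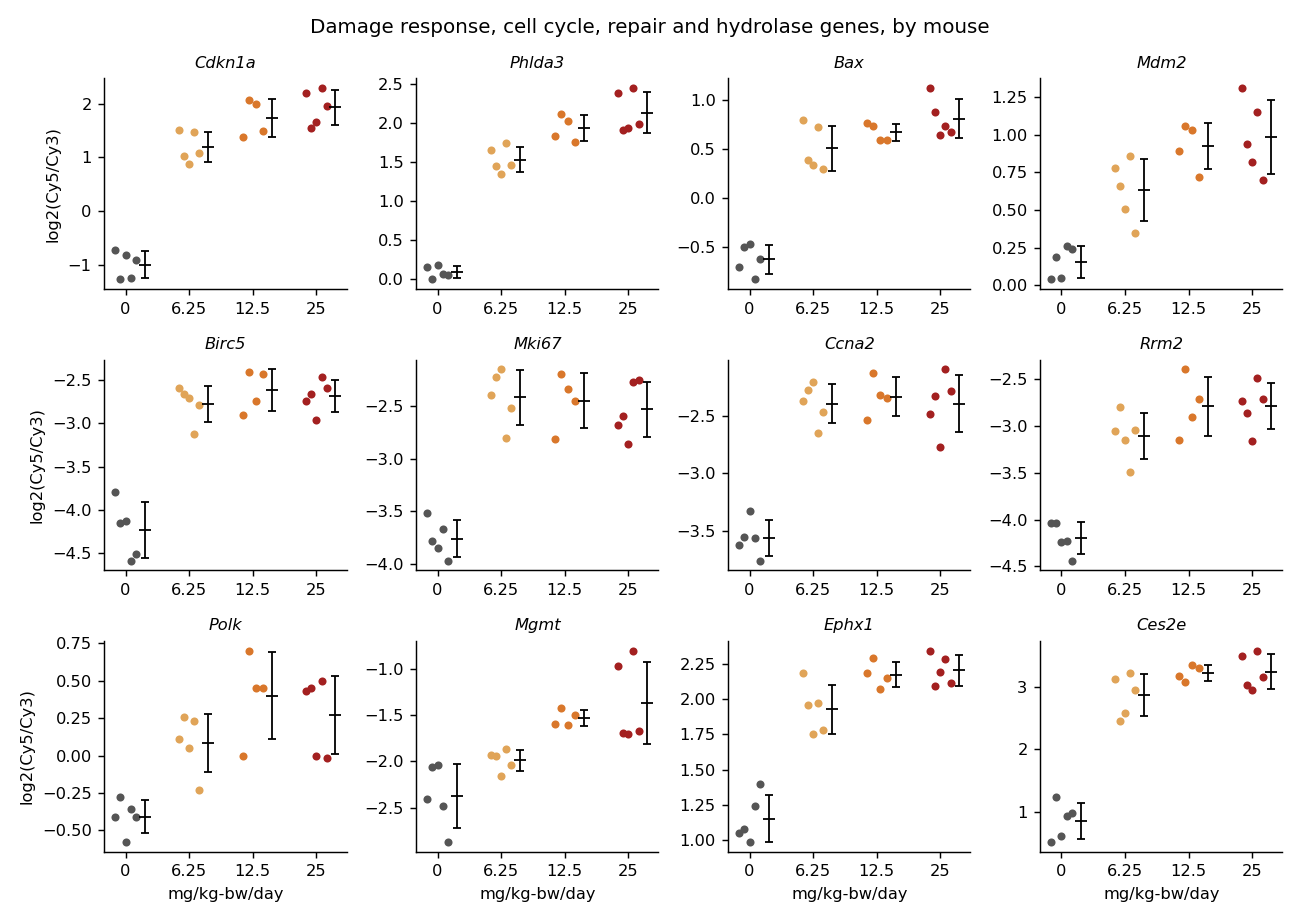
Points are single mice by dose (D0, D1, D2 and D3, in mg/kg-bw/day), with log2(Cy5/Cy3) on the y axis and the group mean ± SD beside them (n = 5, 5, 4 and 5). In all 12 genes the 5 mice of D3 lie above the 5 controls.

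The targets of p53 that halt the cell cycle or signal stress rose at D3 in 8 of 13 measured members. Their median was 0.91 on the log2 scale, beside 0.01 over all genes. Gdf15, a stress-induced cytokine, had levels of -2.13, -2.39, -1.85, -1.66 and -1.95 in the D0 mice and 1.81, 1.58, 1.35, 1.94 and 1.52 in the D3 mice. The groups lay far apart, and the fold change was 3.64 ± 0.21 (log2, SE, adjusted p = 1.87e-09). Cdkn1a, which encodes the cyclin-dependent kinase inhibitor p21, lay between -1.27 and -0.73 at D0 and between 1.55 and 2.29 at D3. Its 2 probes gave log2 fold changes of 2.93 and 2.79. Ccng1, the cyclin G1 gene, rose by 1.95 ± 0.20 (adjusted p = 1.02e-05), and Trp53inp1, a p53 cofactor, by 1.31 ± 0.11 (adjusted p = 7.66e-07), both on the log2 scale with the SE. Zmat3, Ckap2, Plk2 and Sesn2 completed the calls of the list. Sesn2, a stress-induced inhibitor of growth signalling, had overlapping groups and an adjusted p of 0.0351.

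The targets of p53 that promote cell death rose in 6 of 14 members, with a median of 0.46. Phlda3, a repressor of Akt signalling, lay between 0.00 and 0.19 in the D0 mice and between 1.91 and 2.45 in the D3 mice. Bax, which permeabilizes the mitochondrial membrane, had levels of -0.70, -0.50, -0.47, -0.83 and -0.62 at D0 and 1.12, 0.88, 0.64, 0.73 and 0.67 at D3, a fold change of 1.43 ± 0.11 on the log2 scale. All 5 D3 mice were above all controls. Aen, a nuclease active in apoptosis, rose by 1.59 ± 0.14, and its other probe by 1.63. Ei24 rose by 0.88 ± 0.12. The BH3-only genes Pmaip1 and Bbc3 had log2 fold changes of 0.59 and 0.57, of which the first was called and the second fell just short of the fold threshold with an adjusted p of 0.000239. Pmaip1 and Bbc3, like Cdk1, Ccnb1 and Cdc20 below, are each named after the values were seen. With median centring in place of loess, the calls of the 2 lists were 4 and 1.

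Of 9 regulators of p53, 2 were called, Ccng1 and Mdm2. Mdm2, the ubiquitin ligase that degrades p53, lay between 0.04 and 0.26 at D0 and between 0.70 and 1.31 at D3. The mRNA of Trp53 itself, which was added after its values were seen, had a log2 fold change of -0.10 ± 0.16 with overlapping groups, and its sign changed with the processing. Of 24 other p53 targets, 8 were called higher, with a median of 0.33. Among them Dglucy, a mitochondrial D-glutamate cyclase, rose 2.83-fold, and Zfp365, a zinc finger gene tied to genome stability, by 1.25 ± 0.15. Ephx1, microsomal epoxide hydrolase, which takes part in making diol epoxides of polycyclic hydrocarbons, rose by 1.05 ± 0.09, with levels of 1.05, 1.08, 0.99, 1.24 and 1.40 at D0 and of 2.34, 2.09, 2.19, 2.28 and 2.11 at D3. The raised members thus included a gene of xenobiotic metabolism beside those of growth arrest and death. The lists share Ccng1, and many of their members belong there because they were found to answer to p53 in earlier work on DNA damage.

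Promoter sequences, 250 bases before to 50 after each start, were available from RefSeq (GRCm38.p6) for 18 of the 23 p53 list genes called higher. Both strands were searched for the p53 response element, which is a pair of 10-base copies of the consensus, at most 1 base apart, with the central C and G of each copy intact and at most 2 departures in all. It was present in 6 of the 18 (33.3%), against 218 of 27025 genes with a promoter (0.807%) and 7 of 170 genes called higher (4.12%). The 7 include these 6, and the other is Birc5. The lists hold known p53 targets, and their uncalled members were not counted, so the share does not bear on the rise. The 6 list genes with the element were Bax, Ccng1, Cdkn1a, Ckap2, Rps27l and Zfp365. The promoters of 4 of them are printed 5′ to 3′ to show where the element lies, with its bases in capitals.
Cdkn1a, chr17:29090729-29091028, plus strand: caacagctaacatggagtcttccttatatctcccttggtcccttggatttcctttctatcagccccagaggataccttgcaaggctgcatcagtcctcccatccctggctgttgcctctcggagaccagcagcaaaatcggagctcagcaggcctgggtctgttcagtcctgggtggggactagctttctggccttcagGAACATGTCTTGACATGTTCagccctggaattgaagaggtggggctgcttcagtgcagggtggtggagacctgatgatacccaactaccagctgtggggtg
Ccng1, chr11:40755237-40755536, minus strand: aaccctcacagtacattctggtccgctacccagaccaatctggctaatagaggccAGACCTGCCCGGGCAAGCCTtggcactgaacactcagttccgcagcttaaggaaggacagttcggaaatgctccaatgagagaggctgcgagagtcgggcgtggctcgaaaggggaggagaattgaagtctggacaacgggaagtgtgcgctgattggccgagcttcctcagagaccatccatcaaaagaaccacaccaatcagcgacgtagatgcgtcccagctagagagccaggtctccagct
Bax, chr7:45466849-45467148, minus strand: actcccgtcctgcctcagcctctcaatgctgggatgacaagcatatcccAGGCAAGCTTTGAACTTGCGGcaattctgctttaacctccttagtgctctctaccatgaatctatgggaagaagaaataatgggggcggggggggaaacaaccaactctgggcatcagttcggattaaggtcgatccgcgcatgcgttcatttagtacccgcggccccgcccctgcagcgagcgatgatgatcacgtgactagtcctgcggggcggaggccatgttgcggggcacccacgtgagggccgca
Zfp365, chr10:67912613-67912912, minus strand: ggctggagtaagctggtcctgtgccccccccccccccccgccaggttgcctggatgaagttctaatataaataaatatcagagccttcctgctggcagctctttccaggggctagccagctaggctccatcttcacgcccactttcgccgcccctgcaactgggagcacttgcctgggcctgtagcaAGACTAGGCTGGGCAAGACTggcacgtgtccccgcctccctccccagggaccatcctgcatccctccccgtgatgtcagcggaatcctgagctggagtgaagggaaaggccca
The element of Cdkn1a lies 51 bases before the start shown, and a second start of the gene had none. That of Bax lies 201, that of Ccng1 195 and that of Zfp365 63 bases before the start. Gdf15, Phlda3, Mdm2 and Aen had no match in these windows. A match is a description of letters and does not show binding.

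Genes of mitosis and of the G2/M phase rose in 13 of 22 members, the largest number of calls of any list, and their median was 0.65 on the log2 scale (0.63 at D1 and 0.67 at D2, against the same controls). Birc5, the survivin gene of the chromosomal passenger complex, had levels of -3.79, -4.15, -4.13, -4.59 and -4.51 at D0 and -2.74, -2.66, -2.96, -2.46 and -2.59 at D3. The groups did not overlap, and the fold change was 1.55 ± 0.14 (log2, adjusted p = 1.71e-06). A negative level means less signal in lung than in the reference RNA, which came from cell lines. Mki67, the Ki-67 proliferation marker, rose by 1.23 ± 0.14 and by 1.24 at its other probe. Ccna2, the cyclin A2 gene, lay between -3.76 and -3.33 at D0 and between -2.77 and -2.10 at D3. Kif20a, a kinesin of the central spindle, rose by 0.90 ± 0.14. Cdc20, an activator of the anaphase-promoting complex, rose by 0.87 ± 0.15, Cdk1, the mitotic kinase, by 0.75 ± 0.14 and Ccnb1, its cyclin B1 partner, by 0.74 ± 0.12. The list's remaining calls were Nusap1, Prc1, Tpx2, Aurka, Ccnb2 and Ube2c. Foxm1, a transcription factor of the same program chosen after its values were seen, had a value of 0.31 and was not called.

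Other probes of these genes were dimmer. Those of Birc5 gave 0.46 and 0.87 and were not called, and the latter was well above background on 2 of 5 D0 and 4 of 5 D3 arrays. Those of Cdk1 gave 0 and -0.08, and those of Ccnb1 0.01 and 0.11. These Cdk1 and Ccnb1 probes were well above background on at most 3 of 5 arrays of a group, so their values say little. The called Cdk1 probe was itself well above background on 3 of 5 D0 arrays. The count of 13 was 5 without D3 mice 17, 18 and 19, and 0 with median centring in place of loess.

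Genes of S phase and DNA replication rose in 5 of 20 members, with a median of 0.41, and 18 of the 20 had values above 0. Rrm2, the small subunit of ribonucleotide reductase, lay between -4.44 and -4.04 at D0 and between -3.16 and -2.49 at D3, a fold change of 1.41 ± 0.14 (log2). Rrm1, the large subunit, rose by 0.76 ± 0.13. The licensing factor gene Cdt1 rose by 0.63 ± 0.14, and the helicase gene Mcm3 by 0.62 ± 0.09. Mcm2 was the other member called. The count was 0 with median centring, 3 without D0 mouse 4, D0 mouse 5 or D3 mouse 19, and 8 with the Feature Extraction ratio. Cdkn1a and these genes thus rose in the same lungs. Whether they rose in the same cells cannot be read from bulk RNA, in which more cells of a type and more RNA per cell cannot be told apart.

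The cell cycle genes homology region (CHR), TTTGAA on either strand, is the element through which many G2/M genes are repressed outside the cycle. Of the 13 raised G2/M genes, 10 had a promoter sequence, and 7 of these (70%) held the CHR letters, against 20.2% of all 27025 genes and 24.1% of genes called higher. The genes called higher include these 7. The list holds known G2/M genes, and its uncalled members were not counted, so the share does not bear on the rise. The CCAAT letters, often found beside the CHR and searched on both strands, were in 8 of the 10, against 41.1% of all genes. Promoters of 3 raised genes are printed to show the element next to the start, with the CHR letters in capitals.
Cdk1, chr10:69352863-69353162, minus strand: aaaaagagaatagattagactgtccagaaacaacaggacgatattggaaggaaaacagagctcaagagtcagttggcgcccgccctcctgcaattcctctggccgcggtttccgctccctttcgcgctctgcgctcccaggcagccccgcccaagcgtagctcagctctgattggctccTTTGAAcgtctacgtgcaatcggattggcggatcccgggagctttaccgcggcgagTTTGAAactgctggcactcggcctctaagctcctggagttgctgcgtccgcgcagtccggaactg
Cdc20, chr4:118437294-118437593, minus strand: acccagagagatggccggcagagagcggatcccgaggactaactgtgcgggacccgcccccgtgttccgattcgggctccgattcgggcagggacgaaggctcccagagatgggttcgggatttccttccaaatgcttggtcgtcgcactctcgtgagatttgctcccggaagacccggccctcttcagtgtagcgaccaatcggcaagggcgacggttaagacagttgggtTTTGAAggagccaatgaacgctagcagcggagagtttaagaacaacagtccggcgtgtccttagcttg
Ube2c, chr2:164769679-164769978, plus strand: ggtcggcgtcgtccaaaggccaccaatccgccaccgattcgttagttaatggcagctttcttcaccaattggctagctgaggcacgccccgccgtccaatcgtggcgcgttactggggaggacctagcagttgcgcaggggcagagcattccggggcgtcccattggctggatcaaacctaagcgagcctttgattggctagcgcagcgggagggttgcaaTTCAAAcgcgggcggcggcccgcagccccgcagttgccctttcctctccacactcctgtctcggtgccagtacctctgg
In Cdc20 the CHR lies 18 bases and in Ube2c 29 bases before the start, the latter on the opposite strand, and in Cdk1 copies lie 71 and 15 bases before it. Birc5, Ccnb1 and Nusap1 had none in these windows, while the Birc5 promoter held a p53 response element. Over all 170 raised genes with a promoter, 54.1% held the core of the dioxin response element (GCGTG, on either strand), against 35.2% of all genes. Of 26 lowered genes with a promoter 42.3% held it, and of the 10 raised G2/M genes 70%. The CCAAT letters were likewise in 50.6% of raised and 50% of lowered genes. The 27025 genes with a promoter outnumber the 20018 measured here. A part of the dioxin receptor in these shares was not tested.

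**Figure D3:**
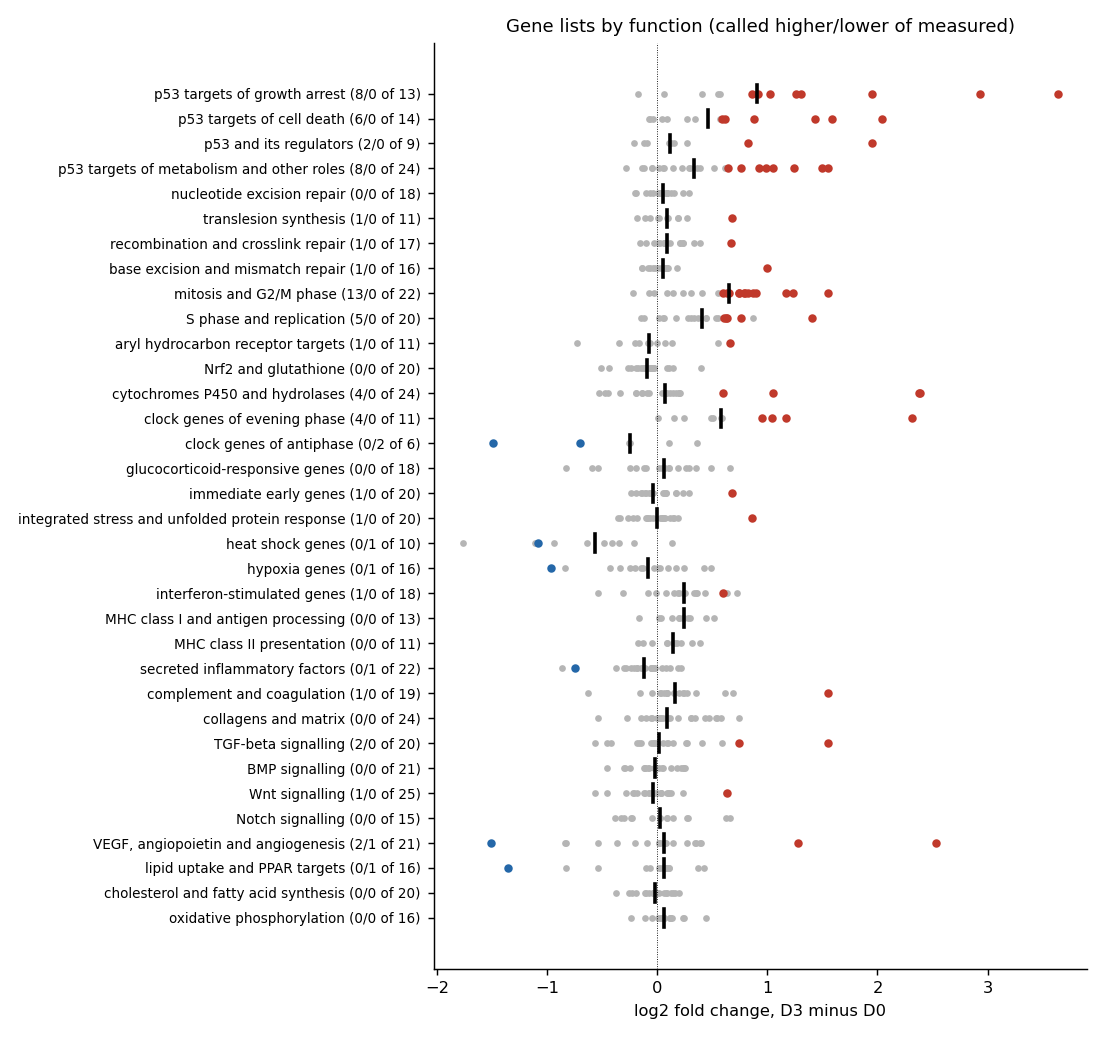
Each row is 1 of 34 gene lists by function and each point 1 measured gene, at its log2 fold change of D3 minus D0; red and blue points were called higher and lower, black bars are list medians, and the numbers give genes called higher/lower of those measured. The p53, mitosis and evening clock lists have medians at or above 0.33 except for the regulators of p53 (0.12), and heat shock genes have the lowest median, -0.56.

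DNA repair genes changed little. None of 18 nucleotide excision repair genes, the pathway that removes bulky adducts, was called, and their log2 fold changes ran from -0.20 to 0.29. Of 17 recombination and crosslink repair genes 1 was called higher, with values from -0.16 to 0.67 and 14 above 0. Polk, which encodes DNA polymerase kappa, an enzyme that copies past bulky adducts on guanine, rose by 0.68 ± 0.13 as 1 of 11 translesion genes. It lay between -0.58 and -0.28 at D0 and between -0.02 and 0.50 at D3, and its dimmer probe gave 0.27 and was not called. Mgmt, which repairs alkylated guanine, was the 1 called gene of 16 in the base excision and mismatch list. Its levels were -2.40, -2.06, -2.04, -2.48 and -2.87 at D0 and -0.97, -1.69, -1.70, -0.81 and -1.67 at D3, so that mice 16 and 19 stood above the other D3 mice.

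Among cytochromes P450 and hydrolases, 4 of 24 rose. Ces2e, a carboxylesterase, lay between 0.52 and 1.24 at D0 and between 2.95 and 3.57 at D3, a fold change of 2.38 ± 0.16 (log2, adjusted p = 1.88e-08). Ces2c rose by 2.39 ± 0.22 and Ces2g by 0.60 ± 0.10. The Ces2 genes are closely related copies, and the other probes gave 0.56 for Ces2e and 0.73 and 0.21 for Ces2c, so that the share of each copy in the signal is uncertain. Of 11 targets of the aryl hydrocarbon receptor, which senses such hydrocarbons, Cyp1b1 alone was called. It rose by 0.66 ± 0.15 with overlapping groups, and its difference within slide 4 was -0.06. Cyp1a1, the classical target, chosen after its values were seen, had levels from 1.93 to 3.77 at D0 and of 4.31, 1.27, 0.73, 1.54 and 2.82 at D3. Its difference of -0.73 ± 0.47 was not called, and mouse 16 lay above all controls while mice 17, 18 and 19 lay below them. At the lower doses the difference was -1.91 (D1) and -1.63 (D2). The levels there ran from 0.36 to 1.31 and from 0.87 to 1.66, so every D1 and D2 mouse lay below all controls. None of 20 Nrf2 and glutathione genes was called.

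Clock genes that peak in the evening rose in 4 of 11 members, and all 11 had values of 0.00 or more. With median centring none of the 11 was called. The 4 raised with loess were Dbp (2.32 ± 0.33), Nr1d2 (1.17 ± 0.21), Hlf (1.04 ± 0.20) and Tef (0.95 ± 0.16), all transcription factors under control of the clock. Of 6 clock genes of the opposite phase, Arntl, the BMAL1 gene, fell by 1.49 and Nfil3 by 0.70. Nfil3 had overlapping groups and kept its direction on 3 of 4 slides, with 0.11 on slide 3. The labels give no hour of sampling.

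Stress and signalling lists held few calls. In the heat shock list 9 of 10 genes had values below 0 and Dnajb1, a co-chaperone, was called lower. Its D0 levels of 1.41, 0.71, 0.33, 1.01 and 1.60 were spread widely, while the D3 levels lay between -0.19 and 0.02. Hspa1a, the inducible Hsp70 gene, named after its values were seen, had an SD of 1.37 at D0 and 0.29 at D3, and its change of -1.76 had an adjusted p of 0.0877. With slide as a block it was -1.70 (adjusted p = 0.0429), but within slides 2 to 5 it was -0.63, 0.36, -2.43 and -2.97. Hsph1, also named after its values were seen, had an SD of 1.14 at D0 and 0.43 at D3. Its difference of -1.11 had an adjusted p of 0.27 and was not called. The larger spread at D0 was not tested. Hilpda, a lipid droplet gene induced by hypoxia, fell by 0.96, Egr1, an immediate early factor, rose by 0.68, and Zbp1, a sensor of nucleic acids, rose by 0.60 at 1 of 2 probes. Each was the only call in its list of 16, 20 and 18 genes. The groups overlapped for Hilpda and Zbp1 but not for Egr1. The matrix gene Ltbp2 of the TGF-beta list rose by 0.74, and the receptor gene Fzd6 of the Wnt list by 0.64. None of the 24 collagen and matrix, 21 BMP, 15 Notch, 20 cholesterol and fatty acid synthesis, 16 oxidative phosphorylation, 13 MHC class I, 11 MHC class II or 18 glucocorticoid-responsive genes was called.

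**Figure D4:**
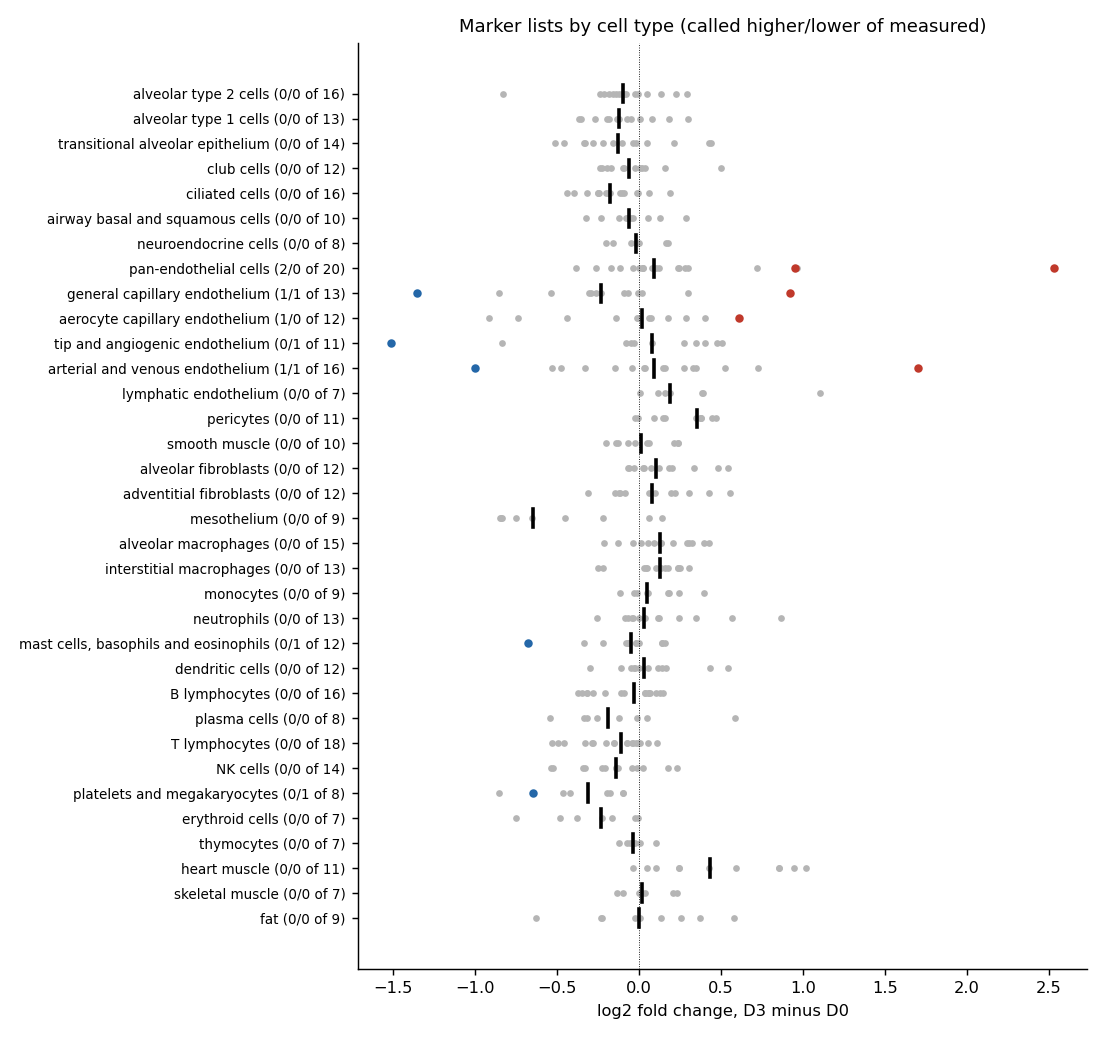
Each row is 1 of 34 marker lists and each point 1 marker gene at its log2 fold change of D3 minus D0; red and blue points were called higher and lower, black bars are medians. Calls lie in the endothelial, mast cell and platelet lists, and the mesothelial list has the lowest median, -0.65.

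The cell types of the lung were followed by 34 marker lists. None of the markers of alveolar type 1 and type 2 cells, club, ciliated, basal and neuroendocrine epithelium was called, nor those of pericytes, smooth muscle, fibroblasts, macrophages, monocytes, neutrophils, dendritic, B, T and NK cells. Some uncalled lists still lay mostly on 1 side of 0. Of 11 pericyte markers 9 lay above 0 and 2 below (median 0.35). Below 0 lay 15 of 18 T cell markers (median -0.11) and 14 of 16 ciliated markers (median -0.18). Sftpc, surfactant protein C of type 2 cells, had levels from 6.69 to 7.40 at D0 and from 6.45 to 7.22 at D3, and a difference of -0.16 ± 0.25. Foxj1, the master factor of ciliated cells, had a difference of -0.32 ± 0.28. The signs of both turned under median centring, which moved the median gene from 0.01 to 0.21. Of the first-listed markers of the 34 types, 26 were well above background on all 10 arrays, and 32 were not called, with values from -0.85 for Msln of mesothelium to 0.72 for Pecam1 of endothelium. The other 8 were near background on some arrays, and Xcr1 of dendritic cells and Rag1 of thymocytes were well above background on none, so that their values say nothing of those cells.

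Endothelial genes moved in both directions. Of 20 pan-endothelial markers 2 rose and 14 had values above 0, with a median of 0.09. Mmrn2, multimerin 2, a matrix protein that binds VEGF on the vessel surface, had levels of 5.58, 5.00, 5.02, 4.40 and 5.17 at D0 and 7.98, 7.22, 6.97, 7.82 and 7.83 at D3. The gap between the groups was wide, and the fold change was 2.53 ± 0.21 (log2, adjusted p = 7.66e-07), from 1.96 to 3.42 within slides. Nos3, endothelial nitric oxide synthase, rose by 0.95 ± 0.13 and by 0.82 at its other probe. Emcn and Pecam1, endomucin and CD31, had values of 0.96 ± 0.27 and 0.72 ± 0.20 with overlapping groups and adjusted p of 0.0875 and 0.0971. Both passed with slide as a block, at 1.03 and 0.78 (adjusted p = 0.00399 and 0.00138), and without D0 mouse 1, at 1.13 and 0.89, so that 4 markers of the list were then called. The Feature Extraction ratio gave Emcn 0.15. Emcn is named after its values were seen. Vegfc, a growth factor for lymphatic vessels, rose by 1.28 ± 0.20, from a range of 0.42 to 1.14 to one of 1.70 to 2.66.

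Cd34, a sialomucin of capillary endothelium and progenitor cells, lay between 0.48 and 0.98 at D0 and was 3.09, 2.09, 1.64, 2.99 and 2.72 at D3. It rose by 1.73 ± 0.23, and its other probe by 1.09. Ramp3, which sets the ligand choice of the calcitonin-like receptor, rose by 1.72 ± 0.16. Prss23, a serine protease of the arterial and venous list, rose by 1.70 ± 0.26 and Prx, periaxin of the aerocyte list, by 0.61 ± 0.12. Of 16 arterial and venous markers 1 rose, 1 fell and 10 had values above 0, with a median of 0.09. Prx was the only call of 12 aerocyte markers, with 6 above 0, 6 below and a median of 0.02. Sema3c, a semaphorin of general capillaries, rose by 0.92 ± 0.18. Its values at D1 and D2 were 0.02 and 0.46.

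Other vessel genes fell. Gpihbp1, which carries lipoprotein lipase across the capillary wall, had levels of 5.49, 4.75, 5.25, 5.53 and 5.57 at D0 and 3.51, 4.03, 4.19, 3.96 and 4.13 at D3. All D3 mice were below all controls, and the fold change was -1.36 ± 0.23 (log2, adjusted p = 0.0029), with -0.37 at D1 and -0.91 at D2. Esm1, endocan of tip cells, lay between 0.93 and 2.43 at D0 and between -0.18 and 0.58 at D3, and fell by 1.51. It was the only call of 11 tip and angiogenic markers, of which 6 had values above 0 and 5 below, with a median of 0.08. Efnb2, the arterial ephrin B2 gene, fell by 1.00, while its other probe gave -0.24 and was not called. Aqp1, a water channel of capillaries, fell by 0.75, from 3.40 to 3.67 at D0 to 2.57 to 2.94 at D3. Cxcl12, a chemokine of vessels and stroma, fell by 0.74 at 1 of its 2 probes. The lists thus held raised and lowered genes of the same cell type side by side: of the 13 general capillary markers 1 rose, 1 fell and 3 had values above 0.

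**Figure D5:**
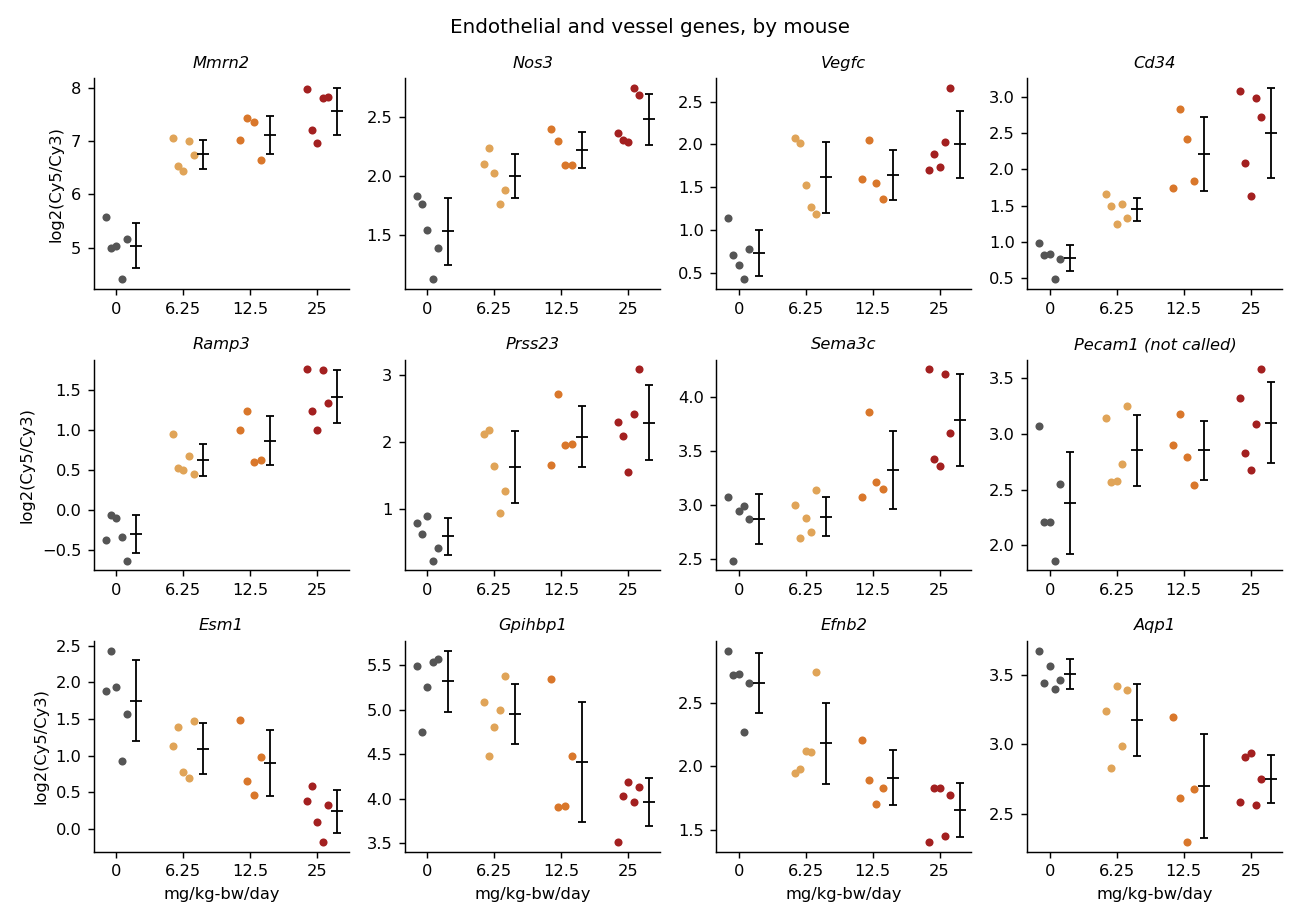
Points are single mice by dose (D0, D1, D2 and D3, in mg/kg-bw/day), with log2(Cy5/Cy3) on the y axis and group means ± SD beside them (n = 5, 5, 4 and 5). At D3 Mmrn2 lies at 6.97 or above against at most 5.58 in controls, Gpihbp1 lies at 4.19 or below against at least 4.75, and Pecam1 overlaps.

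Among blood cell lists, platelet markers held 1 call. All 8 platelet and megakaryocyte markers had values below 0, with a median of -0.31. Treml1, a receptor of platelet granules, fell by 0.65, with levels from 1.60 to 1.99 at D0 and from 0.93 to 1.43 at D3. Ppbp, the platelet basic protein gene, named after its values were seen, had a difference of -0.85 ± 0.24 and an adjusted p of 0.0909. The 7 erythroid markers also lay below 0, with a median of -0.23 and none called, and their part in the platelet values was not tested. Gata2, a factor of mast cells, megakaryocytes and endothelium, fell by 0.68 as the only call of 12 in the mast cell, basophil and eosinophil list.

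The remaining genes at the extremes are given here. Among the 15 most raised were also Celf5, an RNA-binding protein gene (2.21 at a probe well above background on 1 of 5 D0 arrays, and 4.26 with the Feature Extraction ratio), Wfdc12, a protease inhibitor (1.95 ± 0.28), Serp2 (1.71 ± 0.19) and Serpina1a, an alpha-1-antitrypsin gene. The other Celf5 probes gave 0.37 and 0.08, were not called and were well above background on at most 2 of 5 arrays of a group. Serpina1a had D0 levels from -0.38 to 2.69 that overlapped the D3 range of 1.95 to 3.21, and was well above background on 2 of 5 D0 arrays. Its other probe gave 0.68 and was not called. The most lowered gene was Syt15, a synaptotagmin, with 2.22 to 3.48 at D0 and 0.44 to 1.76 at D3. It fell by 1.72, and its second probe was well above background on 1 of the 10 arrays. Spon2, a matrix protein of innate immunity, fell by 1.56, from -0.39 to 0.26 at D0 to -2.48 to -1.04 at D3. Kif26b (-1.01), Tmeff2 (-0.93), Pcdhac2 (-0.88), Acot1 (-0.87) and Slc5a12 (-0.82) followed. Pcdhac2 had overlapping groups. The other probes of Tmeff2 (-0.23), Pcdhac2 (-0.04) and Slc5a12 (-0.59) were not called. Those of Tmeff2 and Pcdhac2 were well above background on at most 1 array of a group. Slc5a12 was well above background on 1 of 5 D3 arrays, and its value ran from -3.02 to -0.59 over the alternatives. Among called genes with several probes, 82 in all, every probe was called in 22 and the probes shared their sign in 72.

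The highest dose was also set directly against the lower ones. Between D3 and D2 limma called 0 probes, with 1296 at an unadjusted p under 0.05, and between D3 and D1 it called 0, with 2448. With slide as a block 10 probes differed between D3 and D1, 5 higher and 5 lower. Those higher at D3 with a symbol were Celf5 (1.20), Sema3c (0.91), Ramp3 (0.80) and Mycn (0.71), and those lower were Syt15 (-1.29), Ppbp (-1.08), Treml1 (-0.83) and Slc5a12 (-0.61). The log2 fold changes against D0 at D1, D2 and D3 were 2.74, 3.35 and 3.64 for Gdf15 and 1.72, 2.09 and 2.53 for Mmrn2. They were 1.46, 1.62 and 1.55 for Birc5 and 1.34, 1.31 and 1.23 for Mki67. All 3 doses share the 5 controls, and the adjusted p between D3 and the lower doses was above the threshold for each of these 4 genes.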

How the data were processed

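Lung RNA of 19 mice was measured on 2-colour Agilent arrays of 62976 spots, with sample RNA in Cy5, reference RNA in Cy3 and no dye swap. The authors extracted the data of the scanned arrays with Feature Extraction 10.7.3.1, and the deposited spot and background intensity values are linear and not normalized. The files' own log10 ratio was computed per the file headers after background subtraction and dye normalization. The log2 ratio values deposited by the authors state no scale. Their columns had slopes of 0.995 to 0.998 against the values used here and medians from -0.0313 to -0.0195, so they were read as log2(Cy5/Cy3), with Cy5 over Cy3 as direction and no gene centring.

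Loess within each array was applied to median intensities that had no background correction, as in the study's methods. Control and outlier spots were left out here (205 probe values emptied). No spot was saturated. Spots were averaged to 55681 probes, of which 26413 had a RefSeq symbol (20018 genes). Without background subtraction folds are compressed: the Feature Extraction log2 fold change was a median of 1.10 times the loess value over the 356 called probes. limma 3.58.1 in R 4.3.3 fitted 1 mean per dose over 19 arrays. MAANOVA was not used. The fit was tested on simulated data. The number of arrays limits the precision. Mice are separate animals.

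The comparison, the 68 lists and the alternatives were chosen with earlier results of these data known. Lists are described by counts and medians with 1 probe per gene, the brightest in Cy5. Named genes were the 15 most raised and the 15 most lowered called genes with all 5 D3 mice on 1 side of the D0 mean, up to 4 called genes per list, first-listed markers, and others marked as chosen after their values were seen. Some genes of the lists are counted but not reported here by name. Alternatives were normexp with an offset of 50, median centring, the Feature Extraction ratio, the authors' values, outlier spots kept, dim probes left out, fewer groups in the fit, slide or scan as a block, a variance trend, array weights and each mouse left out.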

Additional observations from a re-analysis of the deposited data

Results flagged for a closer look

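In 7 of 228 groups of 5 mice (3.07%), taken over 114 named genes, 1 mouse stood apart by Dixon's test at the 95% level, which chance alone gives in about 1 of 20 groups. At D3, mouse 16 had a Serp2 level of 1.79 against 0.82 to 0.98. At D0, mouse 3 had a Ces2g level of -0.34 against -0.66 to -0.56 and an Arntl level of -0.21 against 0.51 to 0.80. Mouse 2 had a Sesn2 level of -0.88 against -0.27 to -0.06. Mouse 1 had levels of -1.92 for H2ac11, against -2.68 to -2.53, and of 1.51 for Rtl8a, against 0.81 to 0.91. Mouse 4 had an Ackr3 level of 0.17 against 0.54 to 0.68.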

How the results depend on the processing

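The count of 356 probes called at D3 stayed between 326 and 533 under normexp (372), the Feature Extraction ratio (533), the authors' values (326), outlier spots kept (356), dim probes left out (385), only the groups of the contrast (332), a variance trend (341), array weights (366), slide as a block (506) and scan as a block (462). Median centring left 16 probes, 15 higher and 1 lower. It moved the median log2 fold change of all genes to 0.21 and the median SE from 0.10 to 0.15; the cause was not tested. With slide as a block 84 probes were lower and 10 differed between D3 and D1, and with scan as a block 6 differed between D3 and D1. Leaving out 1 mouse gave 265 to 386 called probes, 235 to 344 higher and 27 to 57 lower, and 0 to 1 between D3 and D1. Without D3 mice 17, 18 and 19, chosen after seeing the data, 30 were lower. No paired analysis was possible because the dose groups of lung share no mouse number. Of 102 called genes named here, median centring kept 11 calls, and the other alternatives with all mice kept 83 to 102. Leaving out 1 mouse kept 77 to 96, and leaving out D3 mice 17, 18 and 19 kept 67. Of 22 alternatives, 14 ended the call of Zbp1, 12 those of Pmaip1, Nfil3 and H2ac12, and 11 those of Egr1, Sesn2, Clec1a, Serpina1a, Serpina1c and Serpina1e. Signs turned within slides for the called Cyp1b1 (-0.06), Nfil3 (0.11), Serpina1a (-0.33) and Serpina1e (-0.14). Within slides they also turned for the uncalled Hspa1a (0.36), Hsph1 (0.59), Cyp1a1 (0.63), Foxj1 (0.27), Msln (1.01) and Trp53 (0.09 and 0.06). They turned for the uncalled Sftpc (0.47), Foxj1 (0.08) and Trp53 (0.15) under median centring, for Trp53 with the Feature Extraction ratio (0.09) and the scan block (0.01), and for Cyp1a1 (0.71) without D3 mice 17, 18 and 19. Probes near background carry compressed folds.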

Other observations

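The genes below lie outside the lists and were picked from the called genes for their function after their values were seen, so they support nothing about those functions. Among cell cycle genes Spc25, a kinetochore protein, rose by 1.60 ± 0.14, Ncaph, a condensin subunit, by 1.33 ± 0.18 and Uhrf1, which maintains DNA methylation at replication, by 1.03 ± 0.12, all on the log2 scale. The replication genes Fen1 (0.61) and Pole (0.61), the histone chaperones Chaf1b (0.75) and Asf1b (0.62) and the kinase Wee1 (0.89) rose too. So did E2f7 and E2f8, repressors of the E2F program (0.60 each), the cyclin D1 gene Ccnd1 (1.14) and Mycn (1.20). Transcripts of the histone genes H2ac15 (0.64), H2ac22 (0.80), H2ac11 (0.78), H2ac12 (0.61) and H1f2 (0.67) were called higher with overlapping groups. The H2ac copies are nearly identical, as are Rtl8a (0.79), Rtl8b (0.76) and Rtl8c (0.72), so these calls are not independent. The same holds for Serpina1a, Serpina1c (1.67) and Serpina1e (1.48), whose D0 levels had SDs of 1.35, 1.12 and 0.97.

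Further vessel genes were raised. Ackr3, a scavenging receptor for Cxcl12, rose 2.63-fold, and Bcl6b, an endothelial repressor, by 1.27 ± 0.18. Stab2, a hyaluronan receptor of sinusoidal endothelium, rose by 0.83 ± 0.15, Lmo2 by 0.77 ± 0.13, Ptgis, prostacyclin synthase, by 0.77 ± 0.13 and Ly6c1 by 0.71 ± 0.11. Clec1a rose by 1.04 ± 0.25 with overlapping groups. Lowered regulators were Bcl6 (-0.69), Cebpb (-0.60), the ephrin gene Efna1 (-0.60) and, at 1 of 3 probes, the macrophage growth factor Csf1 (-0.67).

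Probes designed to long noncoding regions and named only by position (build mm9) repeated their calls at some loci. At chr10:69669025-69686275, 4 of 5 probes of 1 strand were called lower, with log2 fold changes from -0.83 to -0.36. At chr1:163508244-163586072, 3 of 5 were called higher, from 0.51 to 1.39, and all 3 probes at chr1:163528200-163528398, inside it, from 0.65 to 0.89. All 3 at chr4:149445201-149445902 were called higher, from 0.67 to 0.98. At chr3:121627545-121639470, 2 of 3 were called, with a highest value of 1.74, and at chr17:29183003-29217681, 2 of 5, with a highest value of 1.33. Probes of 1 locus share its transcripts and are not independent.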
